A study of Homo sapiens with 4 samples.

Results

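The mRNAs described here encode core components of the spliceosome, the machine that removes introns from pre-mRNA. They were taken by name from a gene table of DHX36 binding, as every listed gene whose symbol follows the pattern of the SF3A and SF3B, SNRP, SNRNP, PRPF or U2AF families. This gave 45 genes of the 26490 listed, of which 44 are protein-coding and 1, SNRPD2P2, is a pseudogene. The pattern uses symbols and no measured value, but it was set with earlier results of these data known. The binding of a cytoplasmic helicase to their mRNAs was measured, and not the work of the proteins they encode.

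DHX36, also called RHAU, is a DEAH-box helicase that unwinds G-quadruplexes, structures in which runs of guanines stack on each other. Its targets were mapped by PAR-CLIP, in which RNA carrying a photoreactive nucleoside is crosslinked to the protein by ultraviolet light, recovered with it and sequenced. Crosslinked bases read as T-to-C conversions, and overlapping reads with such conversions form a cluster, a stretch of RNA counted as 1 binding site. Cells were HEK293, an established human embryonic kidney line, in 2 stable lines that overexpressed HA-FLAG-tagged protein after 15 h with 500 ng/ml tetracycline and were crosslinked for 5 min at 365 nm. FH-DHX36 carries the wild-type sequence, labelled isoform 2. FH-DHX36-E335A carries a substitution in the helicase motif that removes activity, labelled isoform 1, so that mutation and isoform cannot be told apart. All groups thus share the tag, the antibiotic selection and the induced overexpression, and no untagged control was used here. Each line had 2 replicate samples, but the table gives 1 value per gene and line. No test between the lines was possible. Every interval below covers counting error only and treats reads as independent, so that it may be too narrow.

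Splicing proceeds as small nuclear ribonucleoproteins (snRNPs) join the intron in turn. The U1 snRNP pairs with the start of the intron, the U2AF dimer reads its end, and the U2 snRNP with its SF3A and SF3B proteins settles on the branch site. The U4/U6.U5 tri-snRNP then enters and is remodelled into the catalytic centre, while the U11 and U12 snRNPs take the first roles on a rare class of introns. A ring of Sm proteins forms around most of these small nuclear RNAs.

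Because DHX36 prefers guanine-rich RNA, the canonical transcripts of the 44 coding members were searched for 4 runs of guanines separated by 1 to 7 bases of any kind, on the sense strand and without overlap between matches. With runs of at least 3 guanines (GGG), 6 members held a match. Matches of up to 30 bases from these are shown, with guanine runs in capitals. For FH-DHX36-E335A, U2AF2, PRPF38B and SNRNP70 had large read counts below, SF3A3 had fewer reads and PRPF31 had no cluster. The members with most FH-DHX36-E335A reads, SF3B3, U2AF1, SNRNP48 and PRPF38A, held no GGG match. Coordinates are on GRCh37, and all are from the last exon of the transcript except that of PRPF31, which is in exon 12 of 14.
SNRNP70, CDS, chr19:49611273-49611296, plus strand: GGGagcGGGcccggcGGGagcGGG
U2AF2, 3′ UTR, chr19:56185443-56185462, plus strand: GGGGGaGGGtGGGGGcaGGG
U2AF2, 3′ UTR, chr19:56185582-56185605, plus strand: GGGtGGGGGGcGGGGGttGGGGGG
U2AF2, 3′ UTR, chr19:56185608-56185629, plus strand: GGGGGGttaGGGcaGGGaGGGG
PRPF38B, 3′ UTR, chr1:109245260-109245281, plus strand: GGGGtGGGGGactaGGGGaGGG
SF3A3, 3′ UTR, chr1:38423041-38423061, minus strand: GGGGGGGGGGGGGGagttGGG
PRPF31, CDS, chr19:54632473-54632500, plus strand: GGGccacctGGGcaagtcGGGcagtGGG

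The 6th member was PRPF19, whose single match of 37 bases in the 3′ UTR is not shown. A match is a description of the letters and not a binding site, since the table gives no position of a cluster within a gene. By region, 2 of 44 members (4.55%) held a GGG match in the coding sequence (CDS), against 6.31% of 17889 coding genes. In the 3′ UTR the share was 4 of 44 (9.09%), against 14.3% of coding genes. No member had one in the 5′ UTR, where 6.81% of coding genes did. Spliceosome mRNAs as a group therefore did not hold GGG matches more often than other mRNAs.

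With shorter runs of at least 2 guanines (GG), 37 of 44 members (84.1%) held a match within the CDS and 22 of 44 in the 3′ UTR. Among all coding genes, 84.9% and 64.3% did. The 3′ UTRs of the members were also shorter, with a median of 522.5 nt against 1077 nt. SNRNP70 carried 17 GG matches in its CDS, SNRNP200 and PRPF40B 15 each, and PRPF8 12. In 3′ UTRs the largest numbers were 17 for SF3B3, 8 for PRPF38A and 7 for PRPF19.

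The FH-DHX36-E335A PAR-CLIP held 8752127 crosslinked reads over all genes and the FH-DHX36 PAR-CLIP 2160413, a ratio of 4.05. At least 1 cluster was listed for 39 of the 45 members with FH-DHX36-E335A (86.7%) and for 33 with FH-DHX36 (73.3%). Among all listed genes the shares were 34.5% and 22.4%, and among the 17892 genes matched to a coding transcript 48.2% and 31.3%. All 33 members with an FH-DHX36 cluster also had one with FH-DHX36-E335A, as did 95.6% of all genes with an FH-DHX36 cluster. Of all listed genes, 21.4% had both. Bound members had a median abundance of 22.6 in the authors' unit, which is recovered from the table, against 5.89 for all genes with an FH-DHX36-E335A cluster. The part of this higher abundance in the counts of bound members was not tested.

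Another 6 of the 39 members bound with FH-DHX36-E335A had a cluster in that line alone. Among all listed genes this held for 3462 of the 9131 bound with it, a larger share. SNRPE had 1559 reads in 7 clusters, which would scale to 385 reads at the depth of the FH-DHX36 PAR-CLIP. SNRNP27 had 806 reads, SNRPB2 719, SNRNP35 365 and PRPF4 289. SNRPG had only 16 reads in 1 cluster, which would scale to 3.95. Clusters are called at single sites, so these scaled gene totals do not show which mRNAs would lack a cluster at the lower depth. The part of depth was not tested. No cluster was listed in either line for SF3B4, SF3B6, PRPF3, PRPF31, SNRPN or the pseudogene SNRPD2P2. PRPF31 is among them although its CDS holds the GGG match shown above. The table lists only called clusters, so no upper limit can be given for reads on these mRNAs.

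Together the members held 87685 reads in 344 clusters with FH-DHX36-E335A, 1.00% of all reads, and 24167 reads in 135 clusters with FH-DHX36, 1.12%. These reads were concentrated on few mRNAs. The 5 members with most reads held 51.5% of the members' total for FH-DHX36-E335A and 62.3% for FH-DHX36. SF3B3, U2AF1, SNRNP48, PRPF38A and U2AF2 made up the first set, and U2AF2, SNRNP70, U2AF1, SF3B3 and PRPF19 the second. The plot of scaled reads by role shows this spread.

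**Figure D1:**
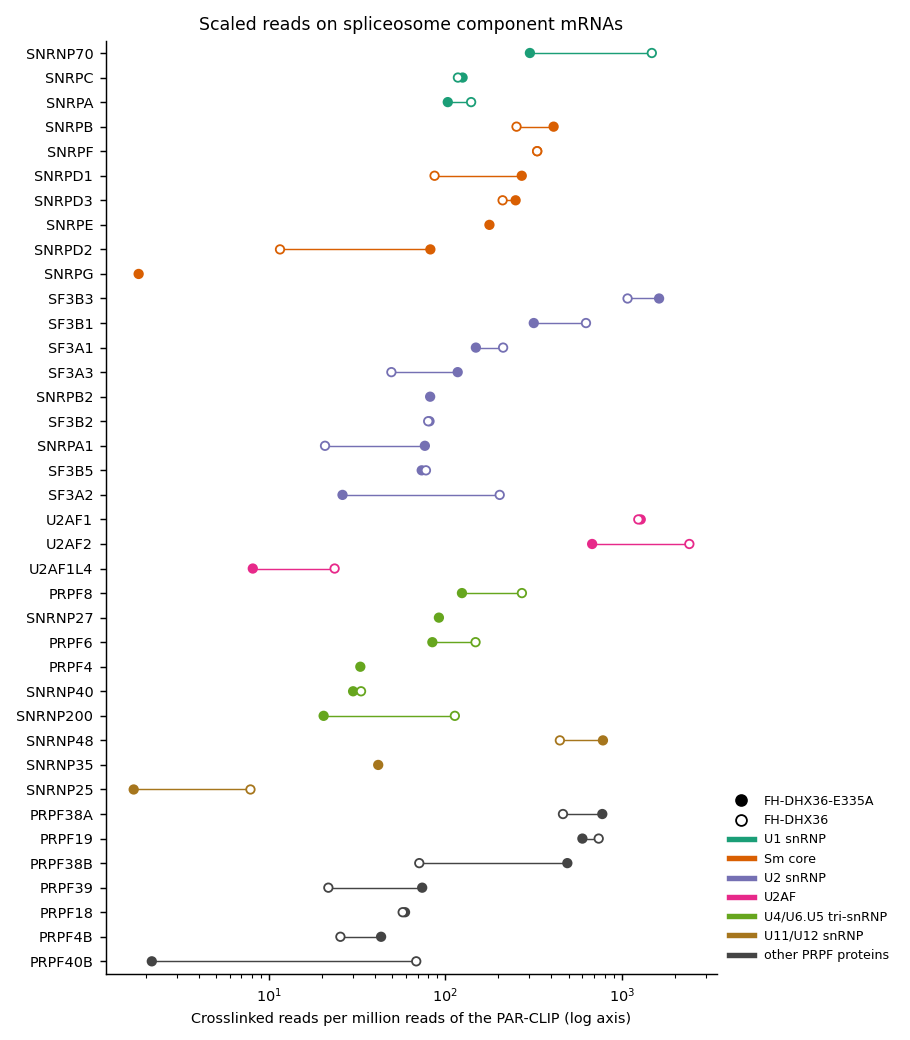
Crosslinked reads per 1000000 reads of the PAR-CLIP (log axis) for 38 of the 39 members with a cluster, ordered by role. Filled points are FH-DHX36-E335A, open points FH-DHX36, and a filled point with no open partner marks a member with no FH-DHX36 cluster. U2AF2, SNRNP70, SF3A2, SNRNP200 and PRPF40B lie far to the right with FH-DHX36, and PRPF38B, SNRPD1 and SNRPD2 far to the right with FH-DHX36-E335A.

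In the U1 snRNP, SNRNP70 encodes the protein that grips a stem loop of U1 RNA. It had 2644 reads for FH-DHX36-E335A and 3205 for FH-DHX36, which is 302 and 1484 RPM (crosslinked reads per 1000000 reads of the PAR-CLIP). Scaled reads were 4.91-fold higher with FH-DHX36 (4.66 to 5.17). The annotation of the reads differed as well. With FH-DHX36, 2969 of the reads (92.6%) lay in the CDS, the region with 17 GG matches and the GGG match shown above. With FH-DHX36-E335A, 88 reads (3.33%) lay in the CDS and 2535 (95.9%) in clusters with an annotation other than UTR, CDS or intron. The other U1 proteins showed smaller differences. SNRPC, which steadies the pairing of U1 with the intron start, had 1098 and 255 reads, and SNRPA, another binder of a U1 stem loop, had 905 and 303. Their ratios of scaled reads, FH-DHX36-E335A over FH-DHX36, were 1.06 and 0.74.

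The Sm proteins are small, and their mRNAs were abundant, with a median abundance of 235 among the 7 with a cluster. SNRPB had 3603 reads for FH-DHX36-E335A and 548 for FH-DHX36. SNRPF had 2911 and 717, so that its scaled reads were nearly equal, with a ratio of 1.00 (0.92 to 1.09). SNRPD2 had 721 and 25, a ratio of 7.12 (4.78 to 11.1), the highest of the members. SNRPD1 had 2377 and 188 reads, 70.6% and 88.3% of them in its long 3′ UTR of 4382 nt. SNRPD3 had 2194 and 457, most of them in other annotation for FH-DHX36-E335A (72.2%) and in the CDS for FH-DHX36 (60.0%). The 3′ UTR of SNRPD3, with 6 GG matches, held 34 and 29 reads. In all 5 Sm mRNAs bound in both lines, the ratio was at or above 1.00. Of all 5669 genes bound in both, 3030 had a ratio above 1. A large part of the reads of the Sm mRNAs, 52.9% for FH-DHX36-E335A and 49.5% for FH-DHX36, carried an annotation outside the UTRs, CDS and introns. Some small spliceosome genes have many annotated pseudogenes named after them, 20 for SNRPG, 18 for SNRPC and 10 for SNRPE, so that their read counts are uncertain. SNRPF had 4 such pseudogenes and SNRPB 1, while SNRPD1 and SNRPD3 had none. On the same strand, 7 members overlap another annotated coding gene, and of these SNRPN and SNRPD2P2 had no cluster. Read counts are also uncertain for the others, SNRPB, SNRPD3, SNRPA1, U2AF1L4 and SNRNP27.

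Among the U2 snRNP mRNAs, SF3B3, which encodes a scaffold of the branch site complex, had 14276 reads in 30 clusters with FH-DHX36-E335A and 2335 reads in 14 clusters with FH-DHX36. Its 3′ UTR of 5855 nt, with 17 GG matches, held 82.7% and 76.1% of these reads. SF3B1, whose protein clamps the branch site and which is often mutated in blood cancers, had 2781 and 1357 reads. In that gene the main annotation differed, from the CDS with FH-DHX36-E335A (65.8%) to clusters of other annotation with FH-DHX36 (70.6%). SF3A1 and SF3A3, subunits of the SF3A trimer, kept most reads in the 3′ UTR in both lines. SF3A1 had 1306 and 460 reads, with 87.0% and 69.3% in that region, and SF3A3 had 1030 and 107, with 92.6% and 100%. The 3′ UTR of SF3A3 holds the run of guanines shown above. SF3B2, another branch site protein, had 713 and 173 reads and no 3′ UTR cluster in either line, with 64.5% and 100% in the CDS. SF3B5, encoded by a single exon, had 644 and 168 reads, mostly in the 3′ UTR (89.3% and 100%). SNRPA1, which binds a U2 stem loop with SNRPB2, had 671 and 45 reads. SF3A2, the remaining SF3A subunit, had 229 and 440 reads, a 7.78-fold higher scaled count with FH-DHX36 (6.62 to 9.17). All 440 FH-DHX36 reads of SF3A2 came from 1 intron cluster, and 56.8% of its FH-DHX36-E335A reads also lay in introns. The larger FH-DHX36 count of SF3A2 thus lay outside its annotated exons.

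The 3 U2AF mRNAs had the highest median cluster density of the roles, 8.85 and 6.52 clusters per kb, with clusters of every annotation counted. U2AF2, the subunit that binds the pyrimidine tract, had 5958 reads for FH-DHX36-E335A and 5231 for FH-DHX36, or 681 and 2421 RPM. Scaled reads were 3.56-fold higher with FH-DHX36 (3.43 to 3.69). Its 3′ UTR, only 648 nt long and with the GGG matches shown above, held 60.8% of the FH-DHX36-E335A reads and 86.2% of the FH-DHX36 reads. U2AF1, the small subunit that reads the terminal AG, had 11234 and 2687 reads, a ratio of 1.03 (0.99 to 1.08). The annotation differed although the scaled totals were close. For FH-DHX36-E335A 14.8% of reads lay in the CDS and for FH-DHX36 71.6%, with 68.2% and 28.4% in other annotation. U2AF1L4, a paralog of U2AF1, had 71 and 51 reads.

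For the tri-snRNP, pooled reads lay mainly in the CDS, with 70.4% for FH-DHX36-E335A and 84.2% for FH-DHX36. With FH-DHX36-E335A, PRPF8 gave 1005 and SNRNP27 779 of the 2370 CDS reads, and 96.7% of the SNRNP27 reads were there. In that line the 3′ UTR held most reads of PRPF6, PRPF4 (51.2%) and SNRNP40 (51.3%). PRPF8, the scaffold of the catalytic centre, had 1089 and 588 reads, of which 92.3% and 100% were in its CDS of 7008 nt. SNRNP200, the helicase that opens U4/U6, had 179 and 245 reads, a 5.54-fold higher scaled count with FH-DHX36 (4.55 to 6.76). PRPF6, which bridges U5 and U4/U6, had 740 and 321 reads, with 66.2% in the 3′ UTR for FH-DHX36-E335A and 72.0% in the CDS for FH-DHX36. SNRNP40, a U5 protein, had 263 and 72 reads, and all 72 came from 1 intron cluster. All 4 tri-snRNP mRNAs bound in both lines had ratios under 1, from 0.18 to 0.90, and the interval of SNRNP40 (0.69 to 1.19) included 1. Of all 5669 genes bound in both, 2639 had a ratio under 1.

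SNRNP48, which recognises the intron start in the minor spliceosome, had 6860 reads for FH-DHX36-E335A and 965 for FH-DHX36, of which 5426 and 589 lay in the 3′ UTR. SNRNP25, another U11/U12 protein, had 15 and 17 reads, too few for its ratio to be read.

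Of the remaining PRPF mRNAs, all 8 were bound in both lines, and 80.3% and 81.9% of their pooled reads lay in the 3′ UTR. PRPF19 and PRPF38A held 2494 of the 2627 FH-DHX36 reads in that region, and 4 of the 8, PRPF39, PRPF18, PRPF4B and PRPF40B, had none there. PRPF38A, a protein of the complex before activation, had 6802 and 1005 reads, 96.1% and 100% of them in the 3′ UTR. PRPF19, the ubiquitin ligase that holds a large activating complex together, had 5246 and 1602 reads, 89.2% and 92.9% in its 3′ UTR of 619 nt. These 3′ UTR shares were alike in both lines. PRPF38B, a relative of PRPF38A, had 4310 and 154 reads, a ratio of 6.91 (5.88 to 8.17). PRPF39, a partner of U1, had 648 and 47 reads, spread over all 4 regions for FH-DHX36-E335A. PRPF18, which acts at the second catalytic step, had 518 and 124, and PRPF4B, a kinase, 379 and 55. PRPF40B, a U1-associated protein, went the other way with 19 and 148 reads, from 1 cluster in each line, a 31.6-fold higher scaled count with FH-DHX36 (19.5 to 53.9). All reads of PRPF40B in both lines lay in other annotation. None lay in its UTRs, its introns or its CDS, which holds 15 GG matches.

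Across the 33 members with a cluster in both lines, 7 had scaled reads at least 2-fold higher with FH-DHX36-E335A and 8 at least 2-fold higher with FH-DHX36. Among all 5669 genes bound in both, 28.6% and 24.8% were past these limits, so the members differed between the lines about as often as other genes. The median ratio was 1.02 for the members, with a range of 0.03 to 7.12, and 1.09 for all genes. Beside those named above, ratios past 2-fold included those of SNRPA1 (3.68), PRPF39 (3.40), SNRPD1 (3.12) and SF3A3 (2.38) upward, and U2AF1L4 (0.34) and PRPF8 (0.46) downward. The count of 8 includes SNRNP25, with its 15 and 17 reads, and was 7 with at least 50 reads in either line. Counting intervals lay entirely above 1 for 13 members and entirely below 1 for 13. They were computed for the members alone, so no share over all genes stands beside these counts. Whether differences of this size occur between replicates of 1 line could not be examined.

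By region, 52.4% of the members' reads lay in 3′ UTRs with FH-DHX36-E335A (52.1 to 52.7) and 44.2% with FH-DHX36 (43.6 to 44.8). The CDS held 15.6% (15.4 to 15.8) and 34.1% (33.5 to 34.7). Introns held 2.91% and 2.42%, 5′ UTRs 2.45% and 2.37%, and other annotation 26.7% and 16.9%. For all genes the 3′ UTR shares were 53.3% and 38.4%, and the CDS shares 16.9% and 28.4%. The larger CDS share with FH-DHX36 was thus shared with the whole table. In the members, 2969 of the 8245 FH-DHX36 CDS reads came from SNRNP70 and 1924 from U2AF1.

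**Figure D2:**
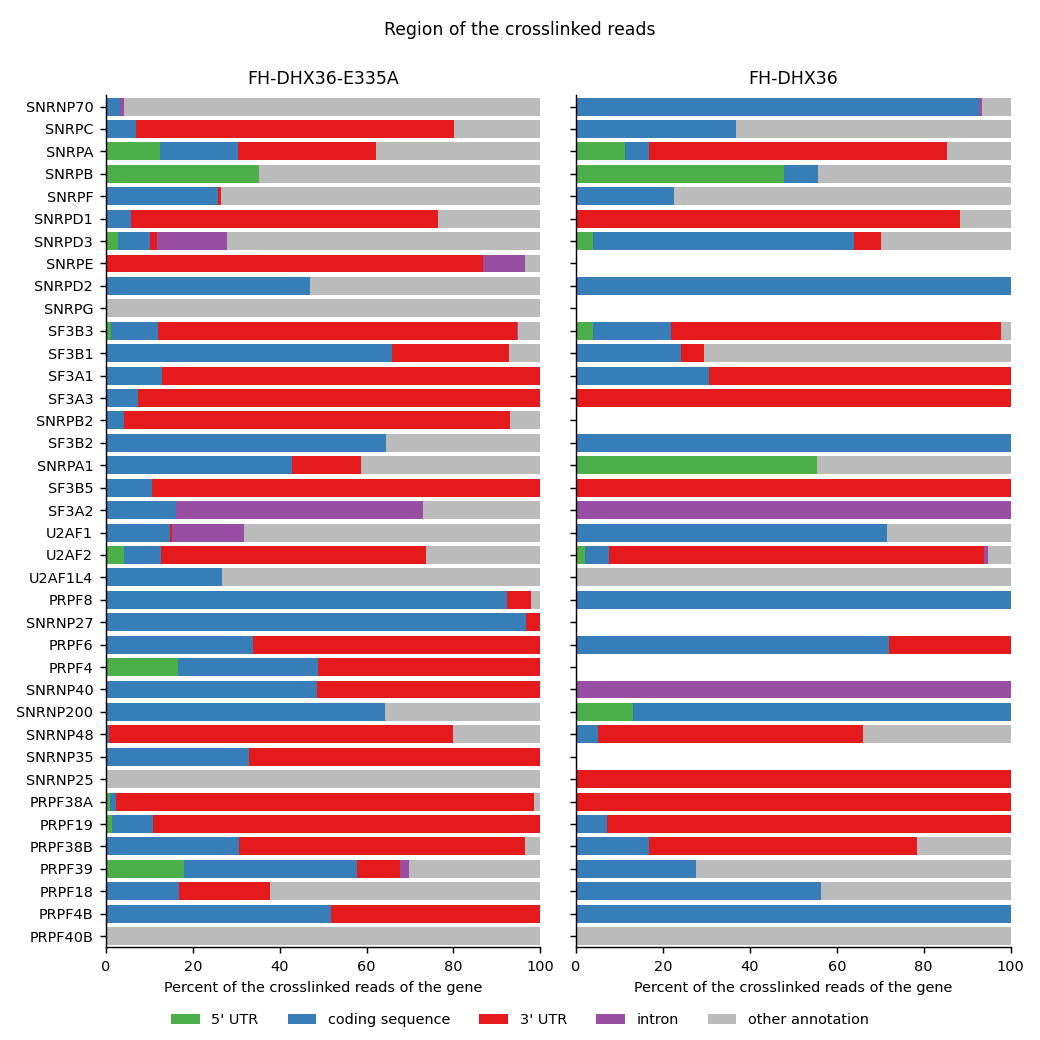
Percent of each member's crosslinked reads in the 5′ UTR, coding sequence, 3′ UTR, intron and other annotation, with FH-DHX36-E335A on the left and FH-DHX36 on the right. Rows are 38 of the 39 members with a cluster, in the order of the plot of scaled reads, and an empty row has no cluster. PRPF38A and PRPF19 keep a 3′ UTR share of at least 89.2% in both lines, while SNRNP70 goes from 3.33% to 92.6% CDS.

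Counted as clusters, the members more often had a cluster of other annotation and a CDS cluster than bound genes at large. Bound members also had more clusters per gene, a median of 7 against 5 for FH-DHX36-E335A and 3 against 2 for FH-DHX36. Their mRNAs were more abundant as well, and the part of either in these counts was not tested. A cluster of other annotation was present in 29 of 39 members for FH-DHX36-E335A (45.4% of all bound genes) and in 18 of 33 for FH-DHX36 (20.9%). A CDS cluster was present in 34 of 39 members bound with FH-DHX36-E335A (65.2% of all bound genes) and in 23 of 33 with FH-DHX36 (46.9%). A 3′ UTR cluster was present in 29 of 39 (78.4% of all bound genes) and 16 of 33 (52.5%). For 5′ UTR clusters the counts were 9 and 7 (20.4% and 18.6%), and for intron clusters 7 and 4 (23.9% and 24.3%). Of the 22 members with a GG match in the 3′ UTR, 17 had a 3′ UTR cluster for FH-DHX36-E335A and 14 for FH-DHX36. Of the 22 without, 12 and 2 had one. The 3′ UTRs with a match had a median length of 1216 nt and those without 240 nt, and the part of length in this difference was not tested.

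Members carried many clusters for their length. The median was 2.99 clusters per kb of transcript for FH-DHX36-E335A and 1.31 for FH-DHX36, against 1.38 and 0.544 for all bound genes with a length. Of the bound members, 34 of 39 and 28 of 33 lay above these medians. The transcripts were also shorter, with a median of 2337 nt for members bound with FH-DHX36-E335A against 3600 nt, and more abundant, as given above. These densities count clusters of every annotation, also in introns, while the length is that of the canonical transcript without introns. U2AF1 had the highest density on this count, with 14.8 clusters per kb for FH-DHX36-E335A and 7.41 for FH-DHX36. Of its 14 and 7 clusters, 6 and 4 lay in UTRs or the CDS.

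**Figure D3:**
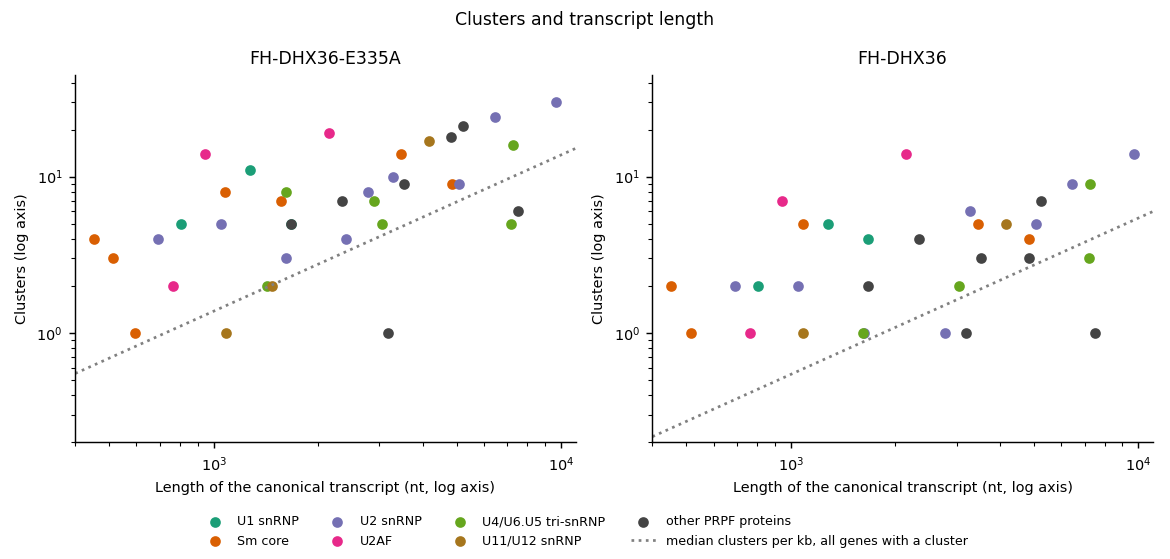
Number of clusters of every annotation against the length of the canonical transcript in nt, both on log axes, for the same members, coloured by role. The dotted line marks the median clusters per kb of all genes with a cluster, 1.38 for FH-DHX36-E335A and 0.544 for FH-DHX36, and most points lie above it.

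NXPM, the authors' score of RPM divided by mRNA abundance, gave a different order. The median of bound members was 4.79 for FH-DHX36-E335A and 5.14 for FH-DHX36, against 5.66 and 7.84 for all bound genes. Above 100, the members numbered 2 and 1 (5.18% and 6.78% of all bound genes). SNRNP48 led with 191 and 109, and high values with FH-DHX36-E335A were also those of SF3B3 (125), PRPF38B (74.9) and PRPF38A (34.4). With FH-DHX36 the next were PRPF40B (97.8), SF3B3 (83.0), U2AF2 (75.7) and SNRNP70 (48.9). PRPF40B reached its value with 148 reads at an abundance of 0.70, the lowest of the bound members.

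For comparison between mRNAs, NXPM was divided by transcript length. The medians, 1.56 and 2.24 NXPM per kb, were close to those of all bound genes, 1.59 and 2.03. SNRNP48 had 45.6 NXPM per kb for FH-DHX36-E335A and 26.0 for FH-DHX36. U2AF2 had 9.92 and 35.3, and SNRNP70 5.96 and 29.3. The Sm mRNAs were at the low end, with medians of 0.51 and 0.31, and SNRPD2, at an abundance of 1742, had 0.092 and 0.013.

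**Figure D4:**
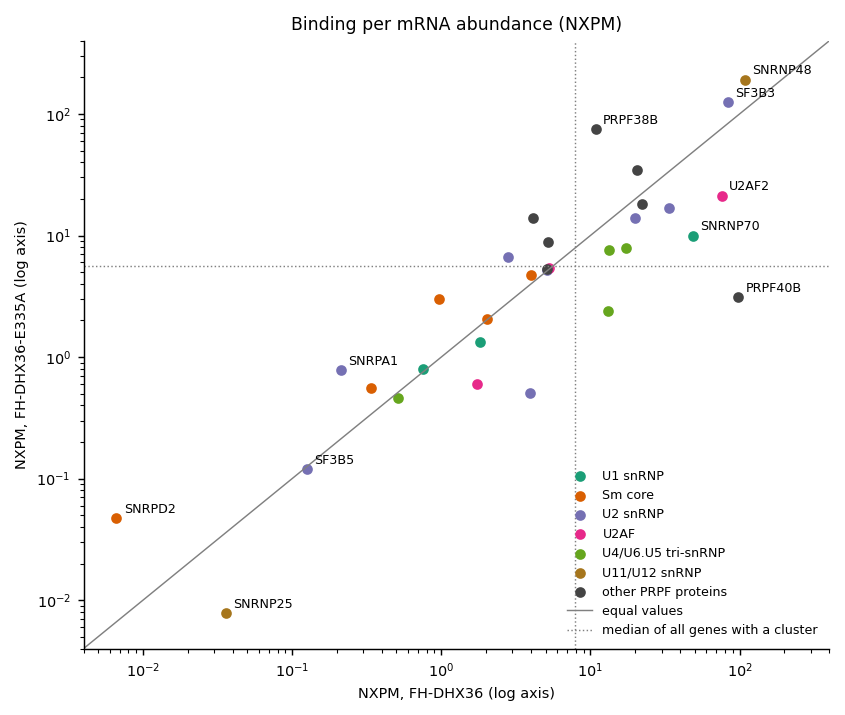
NXPM with FH-DHX36-E335A against NXPM with FH-DHX36 for 32 of the 33 members with a cluster in both lines, on log axes and coloured by role. Points on the grey line have equal values, and dotted lines mark the medians of all bound genes, 5.66 and 7.84. PRPF40B, U2AF2 and SNRNP70 lie to the right of the line and PRPF38B above it.

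Over these 33 mRNAs, NXPM in the 2 lines correlated with Pearson's r of 0.86 on log10 values and Spearman's rho of 0.84, against 0.83 and 0.78 over 5349 genes with an abundance. Both axes share the abundance as divisor, and genes are not independent replicates. For crosslinked reads, which do not share it, rho was 0.76 for the members and 0.63 for all genes. NXPM also went with transcript length, with rho of 0.72 for the 39 members bound with FH-DHX36-E335A and 0.65 for the 33 with FH-DHX36. Over all genes these were 0.55 and 0.53. Crosslinked reads went less with length, with rho of 0.24 and 0.18 in the members. With abundance, the divisor of NXPM, its rho in the members was -0.66 and -0.67. Length and abundance were themselves related in these members (rho of -0.70 and -0.72).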

How the data were processed

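PAR-CLIP libraries came from 2 HEK293 lines, with 2 replicates each. Per the paper's methods, the authors aligned reads to the hg19 genome, ran PARpipe with its default PARalyzer parameters to define clusters and assigned these to gene regions with GENCODE v19. The submitters' processing notes name bcl2fastq 2.17.1, and versions of the remaining programs are not given in the sources used here. A single deposited table holds, per gene and line, whole-number counts of crosslinked reads and of clusters, in all and by region, without normalization. NXPM was deposited by the authors as a score, crosslinked reads scaled to the total and divided by mRNA abundance plus 0.001, from which abundance was recovered. For the NXPM of a region, the total is that of the reads in the region. Of its value columns, 0 belonged to no sample.

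Members and gene lists were chosen with earlier results of these data known. Symbols were matched to canonical transcripts of GENCODE release 44 on GRCh37, the build of hg19 with a later annotation. Reads outside the 4 regions were called other annotation. Reads were scaled to the PAR-CLIP totals for ratios, and a gene was called past 2-fold. Shares have 95% Wilson intervals and ratios 95% exact binomial intervals, for counting error only. Both treat reads as independent, which PCR copies are not, so they may be too narrow. Values were given in full for the 10 members with most reads and the 5 with highest NXPM in each PAR-CLIP, and the 3 highest and 3 lowest ratios with at least 50 reads. Further ratios past 2-fold were named after their values were seen. Results that turn on 1 gene and 1 sequence are not reported here. Scripts were tested on simulated data. Python 3.11.15, pandas 2.3.3, numpy 2.4.6 and scipy 1.17.1 were used.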

Additional observations from a re-analysis of the deposited data

How the results depend on the processing

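No paired analysis was possible because the table holds 1 value per cell line, and for the same reason no replicate could be left out. Of 62 alternatives, 28 stayed within 1.5 times a count or inside the 95% interval of the value (counting error for shares, spread over genes for medians), and 34 moved. The counts of members with a cluster, the numbers past 2-fold, NXPM, NXPM per kb and clusters per kb kept within these limits under every alternative run. For the median NXPM with FH-DHX36 that interval was wide and took in the 3′ UTR value of 10.7 against 5.14 for the whole gene. These 2 values are not on 1 scale, because regional NXPM is scaled to the reads of its own region. The 3′ UTR score of SNRNP48 (172) thus exceeds its whole-gene score (109). The value of 10.7 also covers only the 16 members with a 3′ UTR cluster. In neither line does the 3′ UTR alternative therefore bear on how stable the whole-gene median is. Regional shares moved under nearly all, some by far, so that which region led depended on the measure.
Counted in clusters in place of reads, the 5′ UTR, CDS, 3′ UTR and intron shares were 4.36%, 40.1%, 34.0% and 4.94% for FH-DHX36-E335A, and 5.19%, 46.7%, 28.1% and 2.96% for FH-DHX36, which puts the CDS ahead of the 3′ UTR in both. As medians over genes they were 0%, 16.1%, 31.7% and 0% for FH-DHX36-E335A, and 0%, 17.9%, 0% and 0% for FH-DHX36. Without SF3B3, the member with most FH-DHX36-E335A reads, they were 2.72%, 16.5%, 46.5% and 3.45%. Without U2AF2, which has most for FH-DHX36, the CDS share of 42.0% passed the 3′ UTR share of 32.6%, and introns held 2.83%. With reads of other annotation left out, an alternative chosen after seeing the data, they were 3.34%, 21.3%, 71.4% and 3.97% for FH-DHX36-E335A, and 2.85%, 41.1%, 53.2% and 2.92% for FH-DHX36. Runs of at least 3 guanines in place of 2 lowered the share of members with a match to 0% (5′ UTR), 4.55% (CDS) and 9.09% (3′ UTR).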

Other observations

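Beyond the families above, 63 other listed genes of the splicing pathway, from the LSM ring, the U2 snRNP, the tri-snRNP, the catalytic steps, the U1-associated proteins, the U11/U12 snRNP and the assembly of Sm rings, were described in the same way. Of these, 57 had a cluster in the FH-DHX36-E335A PAR-CLIP and 42 in that of FH-DHX36, all 42 in both, beside 95.6% of all genes with an FH-DHX36 cluster. The shares were 34.5% and 22.4% among all listed genes, and 48.2% and 31.3% among genes matched to a coding transcript. Other spliceosome genes bound with FH-DHX36-E335A had a median abundance of 13.4, against 5.89 for all genes bound with it. The part of abundance in these counts was not tested. Past 2-fold, 9 of 42 were higher for FH-DHX36-E335A and 11 for FH-DHX36, beside 28.6% and 24.8% of all genes bound in both, and the median ratio was 0.90. The genes named here were chosen after their values were seen.

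LSM4, a subunit of the ring that holds the end of U6 RNA, had 4796 reads for FH-DHX36-E335A and 18367 for FH-DHX36. Its scaled reads were 15.5-fold higher for FH-DHX36, and 17661 of the 18367 reads lay in the CDS. CDC5L, a scaffold of the catalytic complex, had 1687 reads in 21 clusters and 23 reads in 1 cluster. Its ratio of 18.1 thus rests on few FH-DHX36 reads. LUC7L2, a U1-associated protein, had 12036 and 2668 reads, of which 11317 and 2512 lay in introns. SF1, which reads the branch site before the U2 snRNP, had 13028 and 4982 reads.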
